A study of Mus musculus with 2 samples.

Results

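Kallikreins (Klk), Prss proteases and Tmprss proteases are 3 families of trypsin-like and chymotrypsin-like serine proteases, and their RNA was compared between medullary thymic epithelial cells (mTEC) sorted for high or for low MHC-II. Members are all named genes in both deposited tables whose symbol is Klk, Prss or Tmprss followed by a digit, with the thymus-specific gene Prss16 left out by the rule. The rule uses names only, and it found 80 genes among 23123: 27 Klk, 36 Prss and 17 Tmprss. Thymi of B6 mice (genotype WT) were pooled before sorting, no treatment is named, and each group gave 1 poly(A)-selected library. Reads were pairs of 100 bases for MHC-II high but single and 50 bases long for MHC-II low, so read type and group cannot be told apart. With 1 library per group there is no replicate error and no test, and every value describes these 2 libraries.

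Serine proteases of these families are made as inactive precursors and cut peptide chains with a catalytic serine that sits in a conserved stretch of the protein. Kallikreins are secreted. Klk1 releases kinins from kininogens, the mouse-specific Klk1b genes are best known from the submandibular gland, and several others shed corneocytes from the skin. Prss genes include the digestive trypsinogens, mast cell and epithelial tryptases and proteases of sperm, whereas Tmprss proteins are anchored in the membrane of epithelial cells. Mature mTEC express many genes of single peripheral tissues, which lets developing T cells meet those antigens.

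Values are RPKM, reads scaled to transcript length and to sequencing depth, so levels of different genes can be compared within a library. A change is log2((high + 1)/(low x 1.21 + 1)) of RPKM, where 1.21 sets the median log2 ratio of well-expressed genes to 0. A gene is called higher or lower from 2-fold on. Paired values always give the high library first. A mean of at least 0.5 RPKM was asked for, which 15590 of 23123 named genes reached (kept genes), so that 32.6% were under this filter. Of the kept genes, 16.1% were higher and 9.35% lower in the high library, and 5.32% were listed at 0 in the low library. The steps of the values imply a depth of about 114900000 read pairs (high) and 20900000 reads (low). A value of 0 in the low library is not read as absence, because even the ribosomal protein gene Rps21 had 144 against 0 RPKM. For such genes only the listing is given, with no fold. All 6 epithelial markers were above 0 in both libraries, with 1 higher and 2 lower in the high library. Epcam had 198 and 127 RPKM and Krt8 had 1015 and 701 RPKM. Krt5 (448 and 770 RPKM, -1.05) and Krt14 (231 and 566 RPKM, -1.57) were lower, and Cldn4 (421 and 168 RPKM, 1.05) was higher. Of 8 fibroblast and pericyte markers 6 were lower in the high library and 1 higher, and 7 of 8 kept macrophage and dendritic cell markers were higher.

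Among the kallikreins, Klk1 and the Klk1b genes are near copies of one another, and the coding bases around the catalytic serine show how alike they are. The stretches below are from GENCODE transcripts (GRCm38), written 5′ to 3′, and the capitals mark the 15 bases that encode glycine, aspartate, serine, glycine, glycine. They show the glandular group first, then 3 kallikreins of other epithelia, and then the member with the highest mean RPKM of the Prss and of the Tmprss family for contrast.
Klk1: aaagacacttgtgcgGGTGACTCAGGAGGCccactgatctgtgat
Klk1b21: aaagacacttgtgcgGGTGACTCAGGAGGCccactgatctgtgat
Klk1b9: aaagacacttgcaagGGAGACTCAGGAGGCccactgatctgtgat
Klk1b22: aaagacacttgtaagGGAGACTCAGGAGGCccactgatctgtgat
Klk1b26: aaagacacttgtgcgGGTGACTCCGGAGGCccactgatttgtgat
Klk1b16: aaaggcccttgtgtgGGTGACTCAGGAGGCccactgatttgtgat
Klk7: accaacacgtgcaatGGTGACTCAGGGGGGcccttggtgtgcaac
Klk14: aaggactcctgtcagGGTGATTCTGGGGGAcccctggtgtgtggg
Klk6: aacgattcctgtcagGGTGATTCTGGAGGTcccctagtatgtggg
Prss8: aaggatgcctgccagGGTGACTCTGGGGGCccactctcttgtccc
Tmprss4: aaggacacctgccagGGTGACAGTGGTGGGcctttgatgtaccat

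Klk1 and Klk1b21 have the same 45 bases in this window, and so does Klk1b24, which is not printed above. The stretch for these 5 amino acids was found in 24 of 26 coding Klk members, 23 of 36 Prss members and 17 of 17 Tmprss members, against 0.670% of 21794 protein-coding genes. Klk10 and Klk1b4 were the 2 Klk members without a match, which says only that these 5 residues in a row are not in that reading frame. Over the whole coding sequence, the 91 pairs among Klk1 and the Klk1b genes were 79.8% to 95.1% identical, with a median of 86.0%, and the closest pair was Klk1 with Klk1b5. The 66 pairs among Klk4 to Klk15 were 50.6% to 58.4% identical.

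How far reads can be assigned to 1 gene follows from exact sharing of windows of the read length. Among Klk1 and the 14 Klk1b transcripts, 3.01% to 33.9% of 50-base windows (median 17.1%) occur in a transcript of another gene, on either strand. For windows of 100 bases the range is 0% to 6.08% (median 1.09%). Klk1b24 shares most, 33.9% of its 50-base windows, with Klk1b21 as the main partner. The sources used here do not give how the authors treated reads that match several genes, so the split among these 15 genes is uncertain, more so in the low library with its shorter reads. Sums over them are less affected by a wrong split, though not by reads that were dropped.

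**Figure D1:**
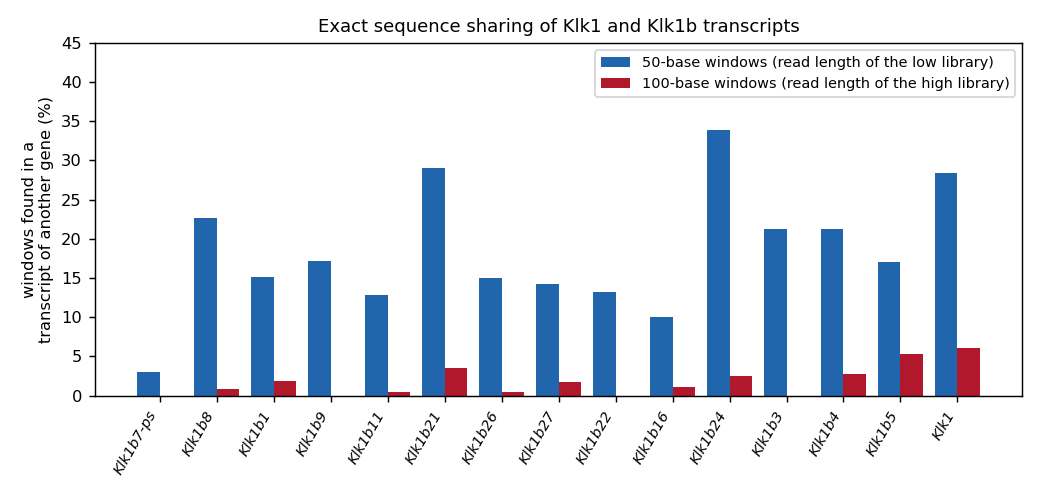
Share of all windows of 50 bases (blue) and 100 bases (red) of each Klk1 and Klk1b transcript that occur exactly in a transcript of another gene, in percent, with genes in chromosomal order. Every gene shares more 50-base than 100-base windows, up to 33.9% for Klk1b24.

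As a family the kallikreins were higher in MHC-II-high mTEC. All 27 members passed the filter, 22 were 2-fold or more higher (16.1% of all kept genes were), 0 were lower (9.35% of all), and the family median was 2.63 on the log2 scale. The other 5 were Klk1, Klk6, Klk7, Klk9 and Klk11, with changes from 0.61 to 0.92. Summed over the family, RPKM was 916 against 167. Among 21 members above 0 in the low library, 16 were higher, against 11.4% of all kept genes above 0 there, and their median was 2.46. With the 6 members listed at 0 set to an assumed 3 reads and no pseudocount, the family median was 3.05. Because zeros there are not plain counts, 3 reads is not a known upper limit, and this median depends on it. Mature mTEC markers, 7 of 8 of them higher, moved with the family, at a sum of 11625 against 3655 RPKM, with Aire at 122 against 15.9 RPKM and Cd86 at 10.6 against 0 RPKM. Most of that sum was H2-Aa (4908 against 1524 RPKM) and Cd74 (6299 against 2048 RPKM). Both belong to the MHC-II pathway on which the cells were sorted, so the sum mainly reflects the sort. The part of the mature mTEC markers in the kallikrein values was not tested. In bulk RNA, fewer cells of a type and less RNA per cell cannot be told apart.

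**Figure D2:**
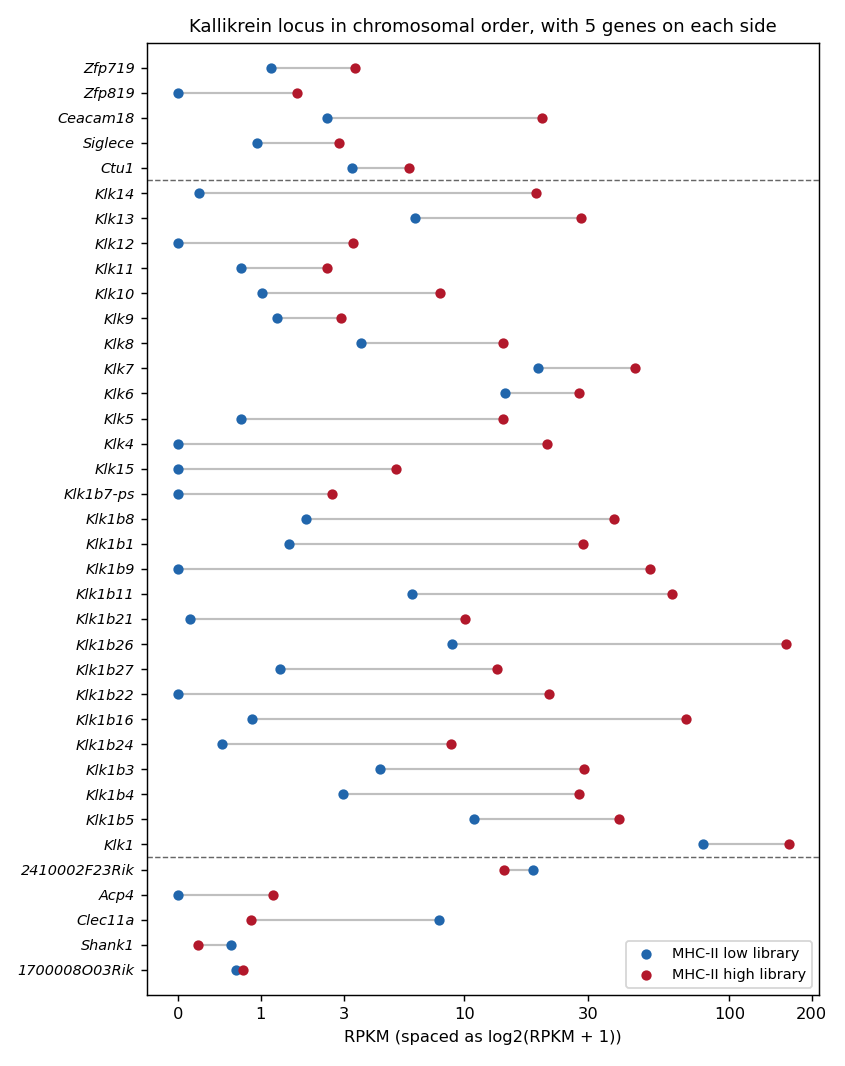
RPKM of each kallikrein gene in the low (blue) and high (red) library, in the order of the genes on chromosome 7, with the 5 nearest named and measured genes on each side beyond the dashed lines. The axis is spaced as log2(RPKM + 1). All 27 red points lie to the right of their blue points, whereas some flanking genes lie the other way, and Klk1 has the highest level in both libraries.

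Klk1, the tissue kallikrein proper, was listed at 165 against 79.7 RPKM. It was the highest kallikrein in both, and it made up 47.7% of the summed Klk level in the low library and 18.0% in the high library. Its change was 0.77, below 2-fold, and became 1.199 with upper quartiles made equal, and it was also past 2-fold without scaling.

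The Klk1b genes stood furthest apart. All 13 coding Klk1b genes and the transcribed pseudogene Klk1b7-ps were 2-fold or more higher (background 16.1%). Of these, 3 were at 0 in the low library (Klk1b9, Klk1b22 and Klk1b7-ps) and so are past 2-fold by construction. The 11 above 0 there were all higher (background 11.4%), with a median of 2.89. The 13 coding genes summed to 558 against 39.5 RPKM, which is 11.7-fold after scaling. Klk1 shares 28.4% of its 50-base windows with other genes, mainly Klk1b genes, so this sum depends on the split of reads. With Klk1 added, the 14 genes summed to 722 against 119 RPKM, or 5.01-fold after scaling. Klk1b26, a protease known to bind epidermal growth factor (EGF), was the highest Klk1b gene in the high library, with 161 against 8.88 RPKM (change 3.78). The 95% counting interval of its log2 ratio without pseudocount was 3.72 to 4.08, which covers counting error only. Klk1b16 had 69.4 against 0.866 RPKM, a change of 5.10. In reads this was 11058 pairs against 25 reads, where 1666 would be expected at an equal level.

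Klk1b9 and Klk1b22, both EGF-binding kallikreins, were listed at 51.1 against 0 and at 21.4 against 0 RPKM. At equal levels the low library would hold about 770 and 316 of their reads. Yet their close relatives were not at 0 there. Klk1b1, which is 93.1% identical to Klk1b9 in coding sequence, had 28.6 against 1.53 RPKM (3.38). The part of shared reads in the 2 listings of 0 was not tested. Klk1b11 had 61.3 against 6.11 RPKM (2.89) and Klk1b8 had 37.3 against 1.92 RPKM (3.53).

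Klk1b3 and Klk1b4, both made in the salivary gland, had similar values. Klk1b3 had 28.9 against 4.42 RPKM (2.24). Klk1b4 had 27.6 against 2.97 RPKM (2.64). Egf, the growth factor that some Klk1b proteins bind, was under the filter with 0.342 and 0.523 RPKM.

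Of the remaining Klk1b genes, Klk1b5 had 39.1 against 10.95 RPKM. Its change of 1.495 was the smallest of the coding Klk1b group, and Klk1b5 is also the gene most like Klk1. Klk1b21 had 10.09 against 0.106 RPKM (3.30), which is only about 2 reads in the low library, and the counting interval of its log2 ratio ran from 4.39 to 9.30. Klk1b27 had 13.5 against 1.35 RPKM (2.46) and Klk1b24 had 8.81 against 0.452 RPKM (2.67). The pseudogene Klk1b7-ps was listed at 2.64 against 0 RPKM.

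The Klk1b genes also share a short element upstream of their starts, found when the promoter sequences were read. The 6 letters TTTAAA, which read the same on both strands, lie within the last 50 bases before the annotated start in 12 of 13 Klk1b genes (not in Klk1b21), at 13 to 48 bases before it. They are in 0 of 14 such windows of Klk4 to Klk15 (12 genes) and in 0 of 1 for Klk1. For Prss they are in 0 of 36 windows of 29 genes. For Tmprss they are in 2 of 14 windows of 12 genes (Tmprss11g and Tmprss15). Over all genes they are in 2.37% of 32851 windows. Some genes had several windows, and some members, such as Prss8 and Tmprss4, had none. The Prss windows included Prss36 and Prss47, which are not members. The stretches below are from RefSeq (GRCm38.p6), all on the plus strand and upstream of the start, with TTTAAA in capitals, for the 6 Klk1b genes with the highest RPKM in the high library and for Klk1b22, the other coding one at 0 in the low library. Their letters around the box are nearly the same. A match describes the letters and is not evidence of a bound factor. The motif was chosen from these sequences and the Klk1b genes are near copies, so the contrast with all genes is no test. Only the 50 bases before each annotated start were searched. A box outside them, also in Klk1 or Klk1b21, would have been missed.
Klk1b26 (chr7:44012622-44012669): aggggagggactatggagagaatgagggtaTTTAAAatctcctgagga
Klk1b16 (chr7:44137221-44137268): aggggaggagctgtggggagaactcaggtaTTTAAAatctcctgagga
Klk1b11 (chr7:43995807-43995854): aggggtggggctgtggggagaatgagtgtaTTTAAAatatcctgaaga
Klk1b9 (chr7:43975998-43976045): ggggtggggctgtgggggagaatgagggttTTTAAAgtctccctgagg
Klk1b22 (chr7:44112603-44112650): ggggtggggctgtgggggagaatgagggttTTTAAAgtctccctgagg
Klk1b8 (chr7:43950592-43950639): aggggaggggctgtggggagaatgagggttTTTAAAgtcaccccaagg
Klk1b5 (chr7:44216402-44216449): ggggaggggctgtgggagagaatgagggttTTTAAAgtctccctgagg

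Klk1b9 and Klk1b22, the 2 coding Klk1b genes listed at 0 in the low library, have the same 48 bases here. Klk1b5, with the smallest change of the group, carries the box as well.

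The other kallikreins, Klk4 to Klk15, fell into members with a large change and members with a small one. Of these 12 genes 8 were 2-fold or more higher (background 16.1%) and 0 were lower, with a median of 1.88. Klk4, Klk12 and Klk15 were at 0 in the low library and so are past 2-fold by construction. Among the other 9 genes 5 were higher (background 11.4%), with a median of 1.496. They summed to 191 against 47.7 RPKM, or 3.31-fold after scaling.

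Among the kallikreins that shed corneocytes, Klk5 and Klk14 differed more than Klk7. Klk14 had 18.9 against 0.188 RPKM (4.02), which is about 5 reads in the low library. Klk5, which starts the skin kallikrein cascade, had 14.2 against 0.695 RPKM (3.04). Klk7, a chymotrypsin-like enzyme that cuts corneodesmosomes, had the highest level of the 12 in both libraries, with 45 against 19.4 RPKM. Its change was 0.91, below 2-fold, and was 1.33 with upper quartiles made equal. A transcript of Klk14 shares 24.2% of its 50-base windows with other genes, so part of its value is uncertain.

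Klk4, an enzyme that removes enamel matrix proteins from growing teeth, was listed at 21.0 against 0 RPKM. Klk15 (5.18 RPKM) and Klk12 (3.31 RPKM) were likewise at 0 in the low library. Klk15 shares 40.1% of its 50-base windows with the gene model Gm44756, whereas Klk4 and Klk12 share none.

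Klk13 had 28.1 against 6.30 RPKM (1.76), Klk10 had 7.96 against 1.03 RPKM (2.00) and Klk8, also called neuropsin, had 14.2 against 3.62 RPKM (1.496). Klk6, known from brain as neurosin, had 27.7 against 14.5 RPKM (0.64). Klk11 (2.48 against 0.701 RPKM, 0.92) and Klk9 (2.93 against 1.30 RPKM, 0.61) were low in both libraries. Klk11 was past 2-fold in 4 of 8 alternatives, at 1.45 with a pseudocount of 0.1 RPKM, 1.03 without scaling, 1.10 with upper quartiles made equal and 1.11 with its transcript lines summed. Klk6 reached 1.05 with upper quartiles made equal. Klk8 shares 26.2% of its 50-base windows with 2310002F09Rik, so part of its value is uncertain.

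Corneocyte-like markers were measured beside these skin kallikreins. Of 8 such genes 3 were 2-fold or more higher (background 16.1%) and 0 were lower (background 9.35%), with a median of 0.70. Their summed level was 881 against 365 RPKM. Krt1 and Krt10 were among the 3, with changes of 4.35 and 3.64, and the third was Spink5, which is also in the list of inhibitors. Dsg1a, likewise in 2 lists, had 0.85, Krtdap 0.55, Ivl 0.44, Lor 0.11 and Sbsn 0.07, and none was at 0. Their part in the kallikrein values was not tested.

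The 27 measured kallikreins lie side by side on chromosome 7, and the change was not the same along the locus. The 10 nearest named and measured genes, 5 on each side, gave 3 higher (background 16.1%) and 1 lower (background 9.35%) among 9 kept. On the side of Klk14, Ctu1 had 5.93 against 3.31 RPKM (0.47) and Ceacam18 had 19.97 against 2.47 RPKM (2.40). On the side of Klk1, 2410002F23Rik had 14.3 against 18.6 RPKM (-0.62) and Clec11a had 0.841 against 7.90 RPKM (-2.52). Klk9, Klk7 and Klk6, with changes under 2-fold, stand close together, with Klk8 among them, and Klk1 lies at the outer end.

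The Prss family was mixed. Of 36 members 19 passed the filter, and of these 12 were 2-fold or more higher (background 16.1%), 2 were lower (background 9.35%) and 5 were neither, with a median of 1.28. Of the 13 kept ones with any value for MHC-II low, 6 were higher and 2 lower, with a median of 0.70, against 11.4% higher and 9.87% lower among all such genes. A kept member at 0 in the low library is past 2-fold by construction, and 6 of the 12 higher ones are of that kind. With these at an assumed 3 reads, which is not a known upper limit, and no pseudocount the median was 2.27. The summed level was 148 against 60.6 RPKM.

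**Figure D3:**
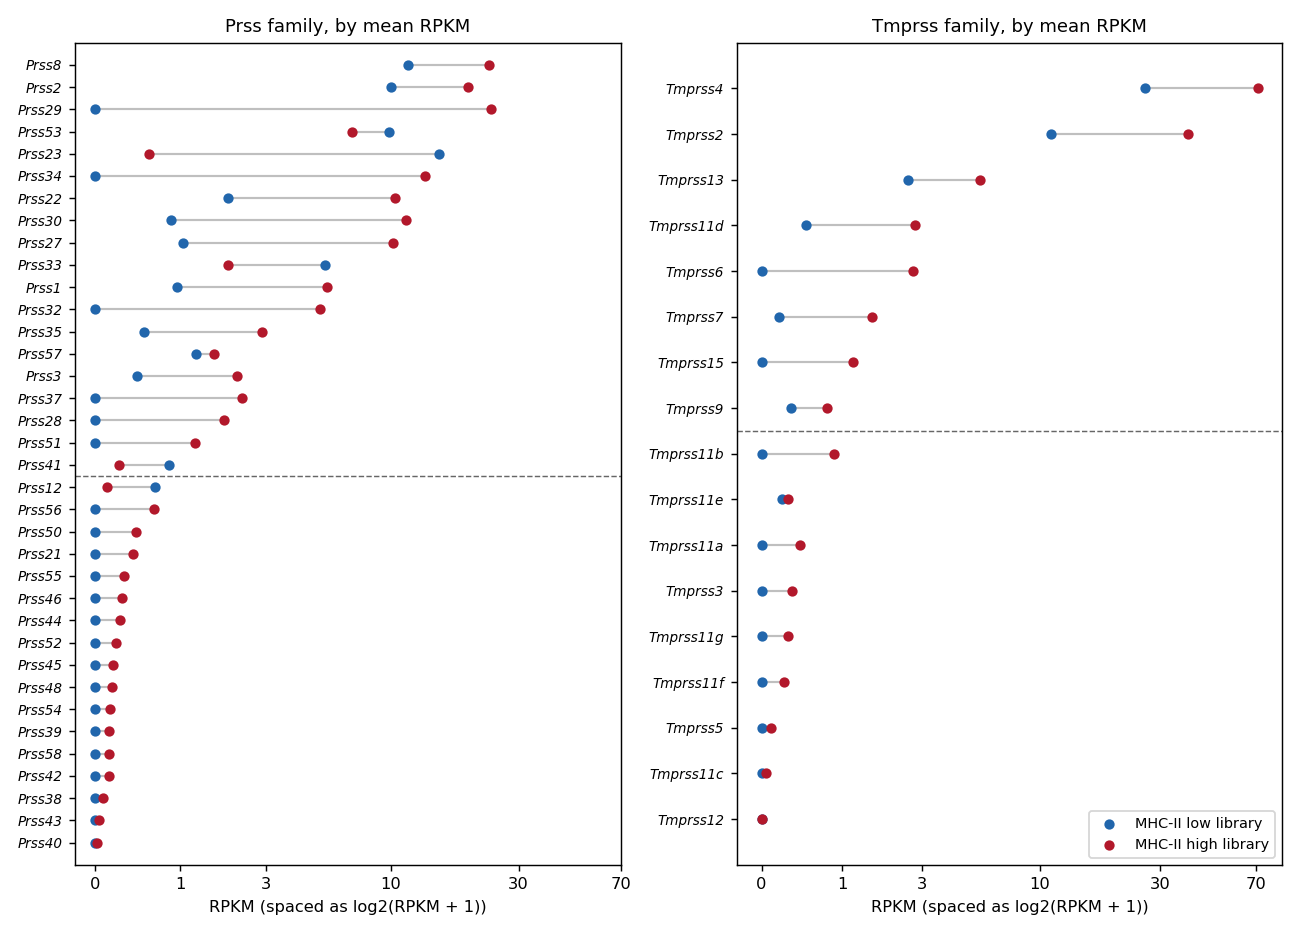
RPKM of each Prss member (left) and Tmprss member (right) in the low (blue) and high (red) library, ordered by the mean of both, on an axis spaced as log2(RPKM + 1). Members below the dashed lines had a mean under 0.5 RPKM. Prss23, Prss33, Prss41, Prss53 and Prss12 are the members with the blue point to the right.

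The 3 trypsinogens, digestive enzymes of the pancreas, were present in both libraries. Prss2 had 19.6 against 10.02 RPKM (0.65, and 1.05 with upper quartiles made equal). Prss1 had 5.58 against 0.949 RPKM (1.62) and Prss3 had 2.16 against 0.413 RPKM (1.07). Prss1 and Prss3 share 54.9% and 66.1% of their 50-base windows with other genes, mainly of the trypsin family, and Prss2 shares 7.83%, so the values of Prss1 and Prss3 are uncertain. Of the genes with which they share most, Gm10334 was higher (2.00 against 0.404 RPKM, 1.01) and Gm5771 was neither (4.34 against 5.11 RPKM, -0.43).

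Of 8 tryptases and membrane-anchored Prss members 7 were kept, 4 were 2-fold or more higher (background 16.1%) and 1 was lower (background 9.35%). Prss8, or prostasin, which activates the epithelial sodium channel, was the highest of them with 23.4 against 11.6 RPKM. Its change was 0.70, or 1.10 with upper quartiles made equal. Prss30 had 11.4 against 0.847 RPKM (2.62), Prss27, or marapsin, had 10.2 against 1.04 RPKM (2.31), and Prss22, or tryptase epsilon of the airways, had 10.4 against 1.95 RPKM (1.76). Prss32 was listed at 5.18 against 0 RPKM, and it shares 27.6% of its 50-base windows with Gm15947. Prss33 was lower, with 1.93 against 5.43 RPKM (-1.37), and fell short of 2-fold with upper quartiles made equal (-0.997). Prss41, next to it on the chromosome, had 0.219 against 0.818 RPKM (-0.71, and -1.77 with a pseudocount of 0.1 RPKM). Prss21, the testis gene testisin, was under the filter with 0.364 against 0 RPKM.

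All of these genes but Prss8 lie in a cluster on chromosome 17. In it Prss33 and Prss41, at one end, had higher values with MHC-II low, unlike the rest. From Prss33 to Prss27 there are 12 measured genes, 7 of them Prss. Of 11 kept genes 9 were higher (background 16.1%) and 1, Prss33, was lower. Of the 9, 6 were at 0 in the low library and so are past 2-fold by construction, and the other 3 were Prss30, Prss22 and Prss27. Between the Prss genes lie Dcpp1, Dcpp2, Dcpp3, Sbp and Sbpl, genes known from salivary glands and prostate, listed at 12.4 to 47.8 RPKM with MHC-II high and at 0 with MHC-II low. Of the 10 flanking genes, all kept, 0 were higher and 2 were lower.

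**Figure D4:**
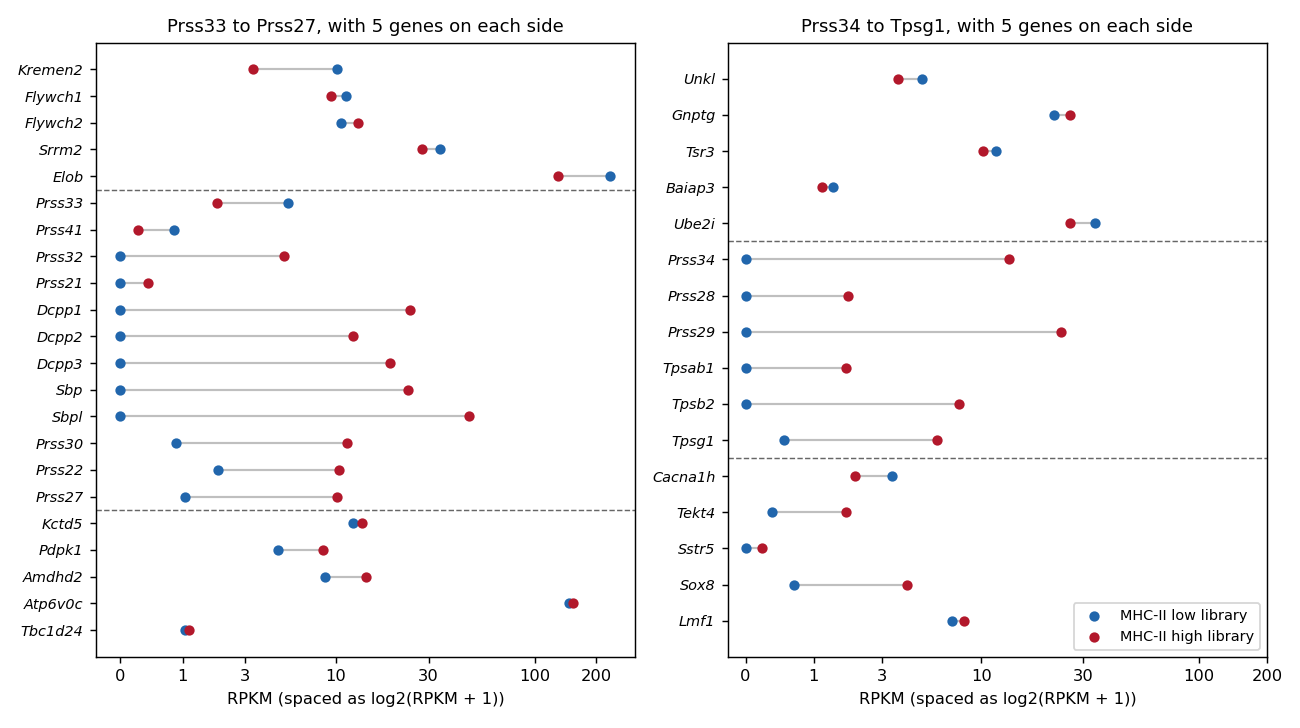
RPKM in the low (blue) and high (red) library of the genes from Prss33 to Prss27 and from Prss34 to Tpsg1, both on chromosome 17, in chromosomal order, with the 5 nearest named and measured genes on each side beyond the dashed lines. The axis is spaced as log2(RPKM + 1). In the second cluster 5 of 6 genes lie at 0 in the low library.

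A second cluster on chromosome 17 held the highest Prss levels among those listed at 0 with MHC-II low. Prss29 and Prss28, the implantation serine proteinases of the uterus, were listed at 23.9 against 0 and at 1.84 against 0 RPKM. Prss34, a protease of mast cells and basophils, was listed at 13.5 against 0 RPKM. At equal levels about 488, 37.9 and 286 reads of Prss29, Prss28 and Prss34 would be expected there. The neighbouring mast cell tryptases Tpsb2 (7.76 RPKM) and Tpsab1 (1.79 RPKM) were at 0 in the low library as well, and Tpsg1 had 6.004 against 0.472 RPKM (2.16). Mast cell and basophil markers are 8 genes, Tpsb2 among them, of which 7 were at 0 in the low library, and their sum was 39.2 against 8.12 RPKM. Cpa3, a defining mast cell gene, had 0.258 RPKM in the high library, Ms4a2 had 0.819, Mcpt8 had 1.18, Fcer1a had 4.49, Cma1 had 5.20 and Mcpt4 had 6.81 RPKM there, and all 6 were at 0 in the low library. Kit, with 12.7 against 8.12 RPKM, made up all of the sum in the low library. The part of such cells in the Prss34 value was not tested.

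Prss23 was the member with the largest change the other way. This secreted protease had 0.548 against 15.3 RPKM, a change of -3.65, with a counting interval of -5.30 to -4.86 for the log2 ratio without pseudocount. Immature mTEC markers, 5 of 6 of them lower (9.35% of all kept genes were), moved with it, at a sum of 784 against 4760 RPKM. Fibroblast and pericyte markers, 6 of 8 of them lower, had a sum of 161 against 671 RPKM, and most of the 161 was Rgs5, which was higher (126 against 49.1 RPKM). Endothelial markers, 6 of 6 of them lower, had a sum of 13.7 against 114 RPKM. None of these markers was at 0 in either library, and their part in the Prss23 value was not tested. Prss23 shares 25.7% of its 50-base windows with its antisense gene, and without strand reads in that stretch cannot be told apart.

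Of the other Prss members with a kept level, Prss53 had 7.06 against 9.85 RPKM (-0.68). It shares 81.3% of its 50-base windows with other genes, Zfp646 among them (5.05 against 4.89 RPKM), so its value is uncertain. Prss57, a neutrophil protease, had 1.63 against 1.26 RPKM (0.06). It shares 41.9% of its 50-base windows with Fstl3, so its value is uncertain. Of 4 kept neutrophil markers 3 were higher (background 16.1%), and the 5 measured ones summed to 398 against 40.2 RPKM. Most of that sum was S100a8 (237 against 15.4 RPKM) and S100a9 (146 against 24.5 RPKM). Mpo had 13.3 against 0, Prtn3 had 1.14 against 0.296 and Elane had 0.123 against 0 RPKM. The part of such cells in the Prss57 value was not tested. Prss35 had 2.86 against 0.493 RPKM (1.28).

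Prss genes of testis and sperm were at the bottom of the range. All 15 were listed at 0 in the low library, and they summed to 5.65 RPKM in the high library. Only Prss37 (2.30 RPKM) and Prss51 (1.25 RPKM) passed the filter. The other 13, Prss38, Prss39, Prss40, Prss42, Prss43, Prss44, Prss45, Prss46, Prss50, Prss52, Prss54, Prss55 and Prss58, had from 0.0134 RPKM (Prss40) to 0.401 RPKM (Prss50) in the high library. At equal levels the low library would hold about 0.296 reads of Prss40 and 10.1 reads of Prss50. For Prss38, Prss39, Prss40, Prss43, Prss54 and Prss58 fewer than 3 reads would be expected there, so a difference was not detectable at this depth. The 6 neighbours from Prss42 to Prss50 on chromosome 9 were all under the filter, although 3 of the 9 kept flanking genes were higher (background 16.1%). Among the rest, Prss56, a gene of eye growth, had 0.619 RPKM and Prss48 had 0.147 RPKM in the high library and both were at 0 in the low library. Prss12, the brain protease neurotrypsin, had 0.1002 against 0.624 RPKM (-0.67).

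Of 8 kept Tmprss members 6 were 2-fold or more higher and 0 were lower, with the same background of 16.1% and 9.35%, and their median was 1.14. Of 17 members 9 were under the filter. Of the 6 with any value for MHC-II low, 4 were higher, with a median of 1.13. With the 2 at 0 set to an assumed 3 reads, again not a known upper limit, and no pseudocount the family median was 1.90. Summed RPKM was 126 against 40.9.

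The best expressed ones are proteases of epithelial surfaces. Tmprss4 had 70.9 against 26.2 RPKM (1.14). Tmprss2, known for priming viral glycoproteins, had 38.6 against 11.1 RPKM (1.46). Their counting intervals were 1.08 to 1.25 and 1.42 to 1.64 for the log2 ratio without pseudocount. Tmprss4 shares 14.2% of its 50-base windows with the gene model Gm17099. Tmprss13, which belongs to the same subfamily, had 5.59 against 2.54 RPKM (0.70, and 1.01 with upper quartiles made equal).

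Tmprss15, or enteropeptidase, the activator of trypsinogen in the gut, was listed at 1.202 against 0 RPKM. Tmprss6, or matriptase-2, the liver enzyme that restrains hepcidin, was listed at 2.70 against 0 RPKM. Tmprss7 had 1.60 against 0.167 RPKM (1.11) and Tmprss9 had 0.761 against 0.291 RPKM (0.38). All 4 were far below Tmprss4 and Tmprss2.

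The Tmprss11 genes, proteases of airway and oral epithelium, sit together on chromosome 5, and only Tmprss11d, the airway trypsin-like protease, passed the filter. It had 2.74 against 0.468 RPKM (1.26). The other 6 had from 0.0377 RPKM (Tmprss11c) to 0.861 RPKM (Tmprss11b) in the high library, and only Tmprss11e was above 0 in the low library (0.256 against 0.197 RPKM). Tmprss11b would be expected at about 62.2 reads in the low library and was listed at 0. Tmprss3 (0.302 RPKM), Tmprss5 (0.0807 RPKM) and Tmprss12 (0.00646 RPKM) completed the members under the filter, all at 0 in the low library.

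**Figure D5:**
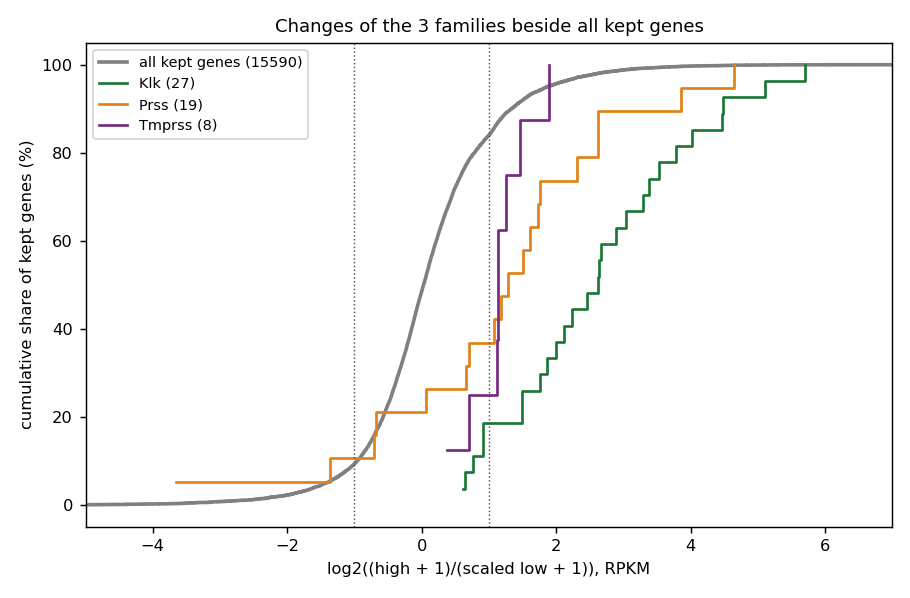
Cumulative share of kept genes against the log2 change for all 15590 kept genes (grey), 27 Klk, 19 Prss and 8 Tmprss members, with dotted lines at 2-fold. The Klk curve lies to the right of the others over most of its range, and the Prss curve reaches below -1. Genes listed at 0 in the low library are included and the pseudocount sets their place.

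Relatives, inhibitors and targets of these proteases were examined as 3 lists. Of 16 kept related proteases (21 measured) 8 were 2-fold or more higher (background 16.1%) and 1 was lower (background 9.35%). Of the 8, 5 were at 0 in the low library. The 11 above 0 gave 3 higher (background 11.4%) with a median of 0.19. The pancreatic chymotrypsinogen Ctrb1 had 48.0 against 0.594 RPKM (4.83). St14, or matriptase, which acts with prostasin, had 37.6 against 27.4 RPKM (0.18), and the plasminogen activator Plat was lower, with 12.6 against 27.3 RPKM (-1.32). With upper quartiles made equal Plat was no longer past 2-fold, which left 8 higher and 0 lower.

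Of 18 kept inhibitor genes (21 measured) 9 were higher (background 16.1%) and 1 was lower. Among these 9, 4 were at 0 in the low library and higher by construction, and the 14 inhibitors above 0 gave 5 higher (background 11.4%) with a median of 0.17. Spink5, the inhibitor of Klk5, Klk7 and Klk14, had 44.7 against 7.63 RPKM (2.16), so it was higher together with Klk5 and Klk14. Spink1, the pancreatic trypsin inhibitor, had 419 against 23.1 RPKM (3.86), the highest level of the list in the high library. Slpi, a secreted inhibitor of leukocyte elastase, had 39.2 against 6.99 RPKM (2.09). Spint1 and Spint2, inhibitors of matriptase and prostasin, had 74.8 against 50.1 RPKM (0.30) and 304 against 260 RPKM (-0.05). Serpina3n was the lower one, with 3.67 against 51.9 RPKM (-3.77).

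Of 13 kept receptors and substrates (16 measured of 17) 7 were higher (background 16.1%) and 1 was lower (background 9.35%). Of the 7, 2 were at 0 in the low library, and the 11 above 0 gave 5 higher (background 11.4%) with a median of 0.85. The bradykinin receptors Bdkrb1 (22.8 against 3.68 RPKM, 2.12) and Bdkrb2 (7.10 against 1.91 RPKM, 1.29) were higher, and the kininogen genes Kng1 and Kng2, which supply the substrate of Klk1, were listed at 3.28 against 0 and at 2.80 against 0 RPKM. Scnn1a, the sodium channel subunit, had 32.7 against 11.2 RPKM (1.22). The corneodesmosome gene Cdsn, whose protein is cut by Klk5 and Klk7, had 13.7 against 2.66 RPKM (1.80). F2rl1, the protease-activated receptor that trypsins cut, had 20.1 against 14.6 RPKM (0.18), whereas F2r, the thrombin receptor, was lower, with 1.74 against 11.2 RPKM (-2.41).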

How the data were processed

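The authors deposited RPKM for each RefSeq transcript. CASAVA, Bowtie 1.0.0, bedtools and build mm9 are named in the submitters' processing notes without their roles. Strand was not kept, per the labels' protocols. Of 30794 lines, 30216 were named through a RefSeq table (GRCm38.p6) and 180 through GENCODE, and 398 were left out (1.29% and 1.72% of the RPKM sums). A gene's value is its line with the highest mean. The factor of 1.21 (0.27 on the log2 scale) rests on 5167 genes above 0 in both libraries whose mean reached 10 RPKM. Read numbers were recovered from the steps of RPKM times GENCODE length. A whole number was met to within 0.1 by 76.3% of 1638 low lines (high library) and 65.6% of 1061 (low library). Lengths were matched for all 80 members. Both the counting intervals (95%, exact binomial) and the 3 reads set for genes at 0 use these reads, cover counting error only, and assume that no reads were shared. The low library had 8287 lines of known length at 0 and 268 with 1 to 3 reads, so its zeros are not plain counts of 0. The 3 reads set for them are therefore an assumption and not an upper limit.

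Members and gene lists were chosen with earlier results of these data known. By the naming rule all kept members are given, and of the other lists genes from those past 2-fold or with the highest mean. F2rl1, Egf, St14, the single markers and the genes sharing windows were named after their values were seen. One gene of the lists is not reported here. Identities are of coding bases, since protein sequences were not used here. The motif TTTAAA was chosen after the sequences were seen. The procedure was tested on simulated data. Alternatives were other pseudocounts, scalings, filters and gene values. Tools were Biopython 1.88, matplotlib 3.10.9, scipy 1.17.1, pandas 2.3.3 and numpy 2.4.6 under Python 3.11.15.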

Additional observations from a re-analysis of the deposited data

How the results depend on the processing

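The Klk counts (22 higher, 0 lower) stayed within 1.5 times under every alternative run. The size of the Klk median (2.63) was less stable. It rose to 3.79 when the pseudocount was 0.1 RPKM, fell to 1.48 when it was 5 RPKM, and lay from 2.46 to 2.97 otherwise. The main median is the value of Klk15, which was listed at 0 in the low library, so its size depends on the pseudocount. For Prss (12 higher, 2 lower) the counts were 6 and 1 with a pseudocount of 5 RPKM, 5 and 1 at a mean of 5 RPKM or more, and 6 higher once genes at 0 with MHC-II low were left out. With the same upper quartile 1 Prss member was lower. For Tmprss (6 higher) the count was 2 with a pseudocount of 5 RPKM and 2 at a mean of 5 RPKM. Related proteases (8 higher, 1 lower) had 2, 1 and 3 higher with a pseudocount of 5 RPKM, a mean of 5 RPKM and without genes at 0, and 0 lower with the same upper quartile. Inhibitors (9 higher, 1 lower) had 5, 4 and 5 higher in those settings and 3 lower with a pseudocount of 0.1 RPKM. Receptors and substrates (7 higher) had 3 with a pseudocount of 5 RPKM, 3 at a mean of 5 RPKM and 4 among genes with a single line. A pseudocount of 5 RPKM damps low genes, and a mean of 5 RPKM, leaving out genes at 0 and single lines test fewer genes, by construction. For equal upper quartiles and a pseudocount of 0.1 RPKM the cause was not tested. Of 54 kept members 33 kept their side of 2-fold in every setting run, and 0 of 500 values changed sign. Other filters and leaving out genes at 0 cannot alter the value of a single gene. Scaling cannot alter that of a gene at 0 in the low library. Part of these 500 values was thus fixed in advance, and their count is no measure of stability. Without scaling the median of all kept genes was 0.25 in place of 0.03, and 0.37 with the same upper quartile, where 3430 genes were higher and 838 lower against 2508 and 1457. No paired analysis was possible because each group has 1 library. Depth limits members under about 10 expected reads in the low library.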
